A study of Mus musculus with 6 samples.

Results

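Insulin and IGF signalling genes were followed in epididymal white adipose tissue (eWAT) of mice that lacked Ret finger protein (RFP, encoded by Trim27) and of wild-type (WT) littermates. The 10 genes were chosen by name, from the ligand to the transcription factor at the end of the pathway: Igf1, Insr, Igf1r, Irs1, Irs2, Pik3r1, Akt2, Tbc1d4, Slc2a4 and Foxo1. They are 10 of the 40213 genes in the deposited table, and all 10 passed the filter on low counts that left 14706 genes for testing. None of the 10 passed edgeR's quasi-likelihood test at an adjusted p under 0.05 with all 6 libraries. Pik3r1 was lower in every RFP KO-HFD library than in every WT-HFD library, an order seen in 16% of all genes. Foxo1 was higher than WT in RFP KO-HFD 2 and 3 and lower in the library labelled RFP KO-HFD 1.

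The RFP KO-HFD group was 3 male mice carrying the whole-body RFP deletion, and the WT-HFD group was 3 male WT mice. Both groups ate a 60% high-fat diet (HFD), which the study's sequencing methods give as 12 weeks, from 8 to 10 weeks of age. Each mouse gave 1 bulk poly(A) RNA library of eWAT. The deletion was in every tissue of the animal and not in fat cells alone, and no mice on normal diet were part of these 6 libraries. The labels call the cells adipocytes, but the libraries hold RNA of other cell types too. In such bulk tissue, fewer cells of a type and less RNA per cell cannot be told apart.

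Insulin and insulin-like growth factors bind related receptor tyrosine kinases, which phosphorylate insulin receptor substrates. These recruit phosphatidylinositol 3-kinase (PI3K), whose lipid product leads to activation of Akt. In fat cells Akt phosphorylates the protein encoded by Tbc1d4, which releases vesicles carrying the glucose transporter GLUT4 to the cell surface, and it keeps the transcription factor FOXO1 out of the nucleus. The libraries measured the mRNA of these proteins and not their phosphorylation or location.

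Trim27, the deleted gene (chromosome 13, 21363570 to 21378893, GRCm39), was read first as a check of the labels. Its level was 19.4, 4.10 and 4.63 TMM-normalized CPM (counts scaled to a common library size) in RFP KO-HFD 1, 2 and 3, against 22.7, 40.2 and 29.5 CPM in WT-HFD 1, 2 and 3. By this gene the library labelled RFP KO-HFD 1 was close to the lowest WT library, whereas the other RFP KO-HFD libraries were far below all of WT. The values are counts over the whole gene, and the sources used here do not say which exons were deleted. Because that library went against its label by this gene, the fold changes of the genes named by rule and the list medians are given both with and without it. The log2 fold change of Trim27 was -1.72 (SE 0.75, adjusted p 0.760) with all libraries, or -2.83 (adjusted p 0.0653) when that library was left out.

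That library also stood apart in other ways. It held 4870239 counts, against 13309044 to 17215047 in the other 5, and 10758 genes had a count there, against 16396 to 20278. The mitochondrial share was 22.3%, 8.07% and 11.1% in RFP KO-HFD 1, 2 and 3, against 5.74%, 3.39% and 4.84% in WT-HFD 1, 2 and 3, so that all RFP KO-HFD libraries were above all WT-HFD libraries. It lacked any count for 816 (12.3%) of the 6634 genes that reached 10 CPM of the library total in all of the other 5. Markers of adipocytes summed to 12285, 30321 and 35110 CPM of the library total in RFP KO-HFD 1, 2 and 3 and to 33859, 20930 and 34146 CPM in WT-HFD 1, 2 and 3. Lpl, which encodes lipoprotein lipase, was 11646 CPM of the sum in the library labelled RFP KO-HFD 1, and the other 11 markers summed to 639 CPM there against 14756 to 29118 CPM in the other 5 libraries. In the library labelled RFP KO-HFD 1, 2 of these 12 markers had no count, namely Adipoq, which encodes adiponectin, and Plin1, which encodes the lipid droplet protein perilipin. Markers of hepatocytes summed to 30633, 3354 and 4704 CPM in RFP KO-HFD libraries and to 1854 to 2467 CPM in WT-HFD libraries, with none of the 13 at 0 in the library labelled RFP KO-HFD 1. When Trf, which made up most of the WT sums, was set aside, they were 28493, 1854 and 3021 CPM in RFP KO-HFD 1, 2 and 3. In WT-HFD 1, 2 and 3 they were 232, 564 and 322 CPM, so that RFP KO-HFD 2 and 3 were above WT too. Cyp2e1 made up most of these sums in RFP KO-HFD 2 and 3, at 1203.5 and 1818 CPM. It was at 1016 CPM in the library labelled RFP KO-HFD 1 and at 123, 390 and 186 CPM in WT-HFD 1, 2 and 3. Alb, which encodes albumin, was at 11949, 279 and 524 CPM of the library total in RFP KO-HFD libraries and at 43.9, 76.0 and 57.4 CPM in WT-HFD libraries. WT-HFD 2 stood apart for smooth muscle markers, at 22038 CPM against 1056 and 1145 CPM in the other WT libraries, and for epididymal epithelium markers, at 1404 CPM against at most 0.929 CPM in the other WT libraries. The part of these differences in the results below was not tested.

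**Figure D1:**
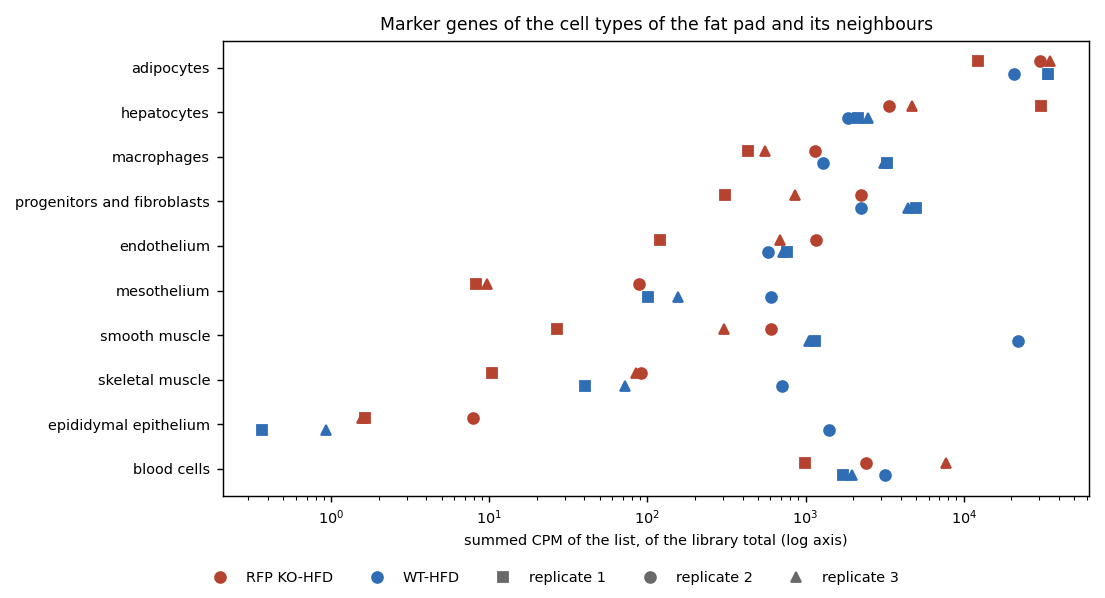
Summed CPM of the marker lists (log axis) in each library, with RFP KO-HFD in red above WT-HFD in blue and a symbol for each replicate number. The library labelled RFP KO-HFD 1 is lowest for adipocyte markers (12285) and highest for hepatocyte markers (30633), and WT-HFD 2 is highest for smooth muscle (22038) and epididymal epithelium (1404).

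Among the 10 genes, 6 had a higher and 4 a lower fitted level in RFP KO-HFD eWAT, with a median log2 fold change of 0.17 beside -0.13 over all 14706 genes tested. None passed edgeR's quasi-likelihood test at a Benjamini-Hochberg adjusted p under 0.05, where 0% of all genes did, and none passed at an unadjusted p under 0.05, where 6.75% of all genes did. With the library labelled RFP KO-HFD 1 left out, the split was again 6 higher and 4 lower and the median was 0.45, beside -0.07 over 15606 genes. Then 2 of the 10, Akt2 and Foxo1, were higher at an unadjusted p under 0.05, where 12.1% of all genes were, and none passed the adjusted test, where 0.0128% of all genes did. By these 2 fits, 1 of 10 and then 4 of 10 genes separated the groups without overlap (Pik3r1 below WT in both, and Insr, Akt2 and Foxo1 above WT in the fit without that library), beside 23.3% and then 45.3% of all genes. None of the 10 met the study's own criteria of p (unadjusted) at most 0.05 and a log2 fold change of at least 2 in either direction, which 4.59% of all genes met with all 6 libraries and 5.84% met without that library. Tbc1d4 and Irs1 had opposite signs in these fits. The scaling moved the centre of all genes, to a median of -0.50 with library totals in place of TMM factors, and the directions of Insr, Akt2 and Slc2a4 flipped under it. RFP KO-HFD 3 had the lowest TMM factor, 0.683, against 0.986 to 1.16 in the other libraries. Its TMM-normalized CPM are therefore higher than its CPM of the library total.

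**Figure D2:**
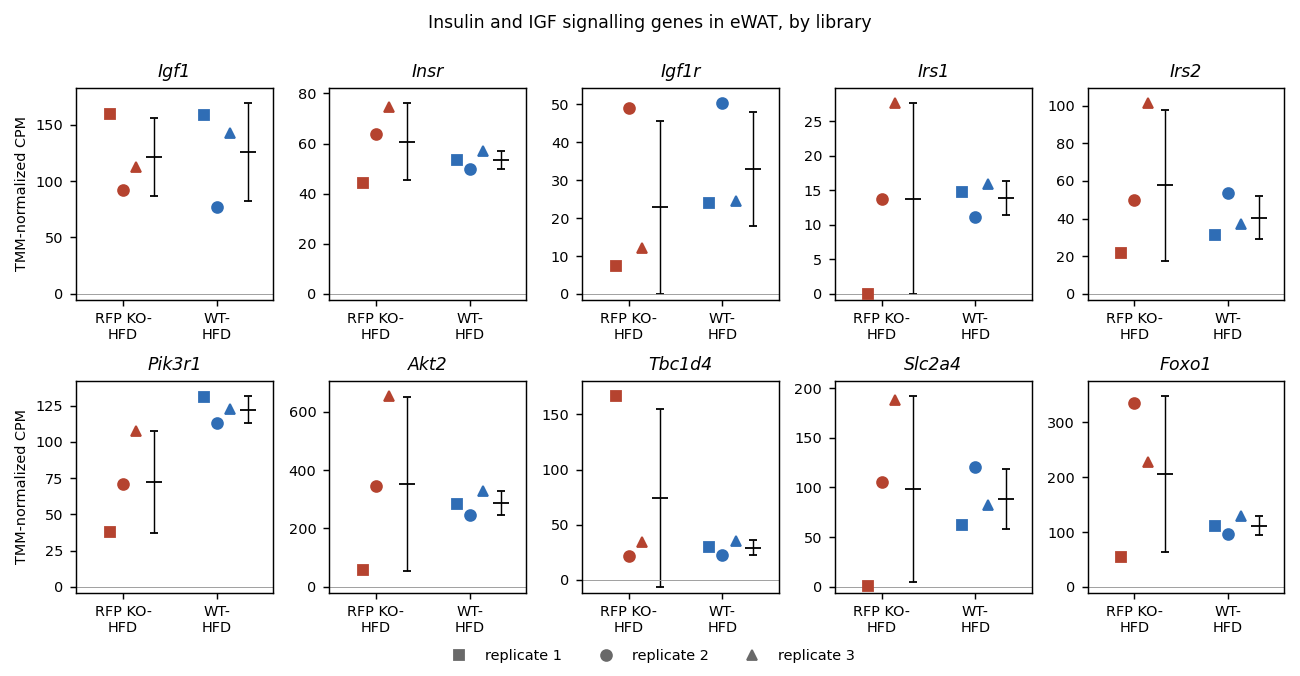
TMM-normalized CPM of the 10 genes in each library (linear axes, 1 panel per gene, with a grey line at 0), RFP KO-HFD in red left of WT-HFD in blue, with bars for mean and SD of 3 libraries. In the RFP KO-HFD group the square, the library labelled RFP KO-HFD 1, is the lowest in 8 genes and the highest in Igf1 and Tbc1d4, and Pik3r1 is the one gene whose groups do not overlap.

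Pik3r1 and Foxo1 kept the sign of their fold change in 17 of 17 alternative analyses, and their promoters are shown for that reason. The alternatives reuse the same libraries, and the share of all genes that kept their sign was not counted. The sequences are the 250 bases before each RefSeq start site in GRCm38.p6, read 5′ to 3′ on the strand of the gene, and capitals mark GC boxes, the letters GGGCGG or their reverse complement CCGCCC. Pik3r1 has 2 start sites in the table, at chr13:101768218-101768467 and chr13:101692631-101692880 on the minus strand. Foxo1 has 1, at chr3:52268087-52268336 on the plus strand.
Pik3r1 start 1: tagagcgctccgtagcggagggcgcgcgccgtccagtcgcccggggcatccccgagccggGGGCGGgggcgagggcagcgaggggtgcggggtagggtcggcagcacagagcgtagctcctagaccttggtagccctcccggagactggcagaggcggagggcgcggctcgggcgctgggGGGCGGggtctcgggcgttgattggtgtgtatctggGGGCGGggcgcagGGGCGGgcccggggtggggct
Pik3r1 start 2: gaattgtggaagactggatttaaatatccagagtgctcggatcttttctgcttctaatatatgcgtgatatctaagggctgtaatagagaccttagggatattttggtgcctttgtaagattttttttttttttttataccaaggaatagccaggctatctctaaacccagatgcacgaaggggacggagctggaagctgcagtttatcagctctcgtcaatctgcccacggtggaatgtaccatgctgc
Foxo1: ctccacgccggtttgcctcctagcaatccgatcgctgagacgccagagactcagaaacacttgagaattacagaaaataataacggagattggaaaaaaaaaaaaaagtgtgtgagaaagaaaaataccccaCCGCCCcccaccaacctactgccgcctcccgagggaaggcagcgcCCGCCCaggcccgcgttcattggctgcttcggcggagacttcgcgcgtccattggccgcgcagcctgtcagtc
The first Pik3r1 window was 76.4% G or C with 30 CpG dinucleotides and 4 GC boxes. The second was 42.4% G or C with 6 CpG and no GC box. The Foxo1 window was 56.0% G or C, with 20 CpG and 2 GC boxes on the opposite strand. GC boxes lay in 32.7% of 32851 RefSeq promoter windows of this length. The forkhead motif GTAAACA, searched on both strands, lay in 3.17% of all windows and in none of the 12 windows of the 8 genes that had an entry. The nuclear receptor half-site AGGTCA lay in 14% of all windows and, among these 12, in those of Igf1 and Igf1r, and its direct repeat (DR1), in which it occurs on both sides of a spacer, lay in 0.0335% of all windows and in none of these 12. No motif overlapped another in the windows shown.

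Igf1 (chromosome 10, 87694127 to 87772909, GRCm39 as for all genes named here) encodes insulin-like growth factor 1, a growth factor that liver releases into blood and that fat and other tissues also make locally. Its level was 159, 91.9 and 112 CPM in RFP KO-HFD 1, 2 and 3, against 158, 77.0 and 142 CPM in WT-HFD 1, 2 and 3. The groups covered nearly the same range, and the lowest library was WT-HFD 2. The mean was 121 ± 34.4 CPM in RFP KO-HFD eWAT and 126 ± 43.1 CPM in WT-HFD eWAT (SD, n = 3 each), which gave a log2 fold change of -0.06 (SE 0.42, adjusted p 0.995). The 95% interval was -1.07 to 0.96, and with the library labelled RFP KO-HFD 1 left out the log2 fold change was -0.32 (SE 0.35, adjusted p 0.597). The library labelled RFP KO-HFD 1 was the top one of its group for Igf1 and Tbc1d4 and the bottom one for the other 8 genes. Macrophage markers summed to 433, 1155 and 556 CPM of the library total in the RFP KO-HFD libraries and to 3277, 1290 and 3118 CPM in the WT-HFD libraries, and markers of progenitors and fibroblasts to 310, 2252 and 853 CPM in RFP KO-HFD libraries and to 4958, 2244 and 4463 CPM in WT-HFD libraries. Both lists were lower in WT-HFD 2 than in the other WT libraries, as Igf1 was. The library labelled RFP KO-HFD 1, where hepatocyte markers were highest, was at 159 CPM of Igf1 beside 158 CPM in WT-HFD 1, and as CPM of the library total at 162 beside 177 CPM. The part of these cell types in the Igf1 levels was not tested.

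The genes whose log2 level was most like that of Igf1 over the 6 libraries were Acadl (Pearson r 0.997), Arl5a (0.989) and Nap1l1 (0.985), out of 9020 candidates at 10 CPM or more on average. Acadl, which encodes a mitochondrial acyl-CoA dehydrogenase, was at 208, 103 and 129 CPM in RFP KO-HFD 1, 2 and 3, against 219, 84.7 and 188 CPM in WT-HFD 1, 2 and 3. These points share their libraries and scaling, and with 6 of them and 9020 candidates a high correlation is a description only.

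Insr (chromosome 8, 3200922 to 3329649), the insulin receptor, was at 44.3, 63.6 and 74.4 CPM in RFP KO-HFD libraries and 53.6, 49.9 and 57.0 CPM in WT-HFD libraries. WT libraries lay close together, with RFP KO-HFD 2 and 3 above them and the library labelled RFP KO-HFD 1 below. The mean was 60.8 ± 15.3 CPM in RFP KO-HFD eWAT and 53.5 ± 3.58 CPM in WT-HFD eWAT (SD, n = 3 each), and the log2 fold change was 0.18 (SE 0.34, 95% interval -0.63 to 1.0, adjusted p 0.961). When the library labelled RFP KO-HFD 1 was left out it was 0.35 (SE 0.18, adjusted p 0.281), and both remaining RFP KO-HFD libraries were above all WT libraries, as in 20.6% of all genes. With library totals as the scale Insr was at 45.0, 62.5 and 50.8 CPM in RFP KO-HFD 1, 2 and 3. It was at 59.9, 57.6 and 63.4 CPM in WT-HFD 1, 2 and 3. The groups overlapped on that scale, and RFP KO-HFD 3 moved from above all WT libraries to below them.

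Igf1r (chromosome 7, 67601486 to 67883416) encodes the receptor that binds IGF1 with high affinity. Its level was 7.28, 49.1 and 12.2 CPM in RFP KO-HFD libraries, against 24.0, 50.3 and 24.4 CPM in WT-HFD libraries. The replicates numbered 2 were the highest of each group, at about equal levels, and the other RFP KO-HFD libraries were lower than any WT library. The mean was 22.9 ± 22.8 CPM in RFP KO-HFD eWAT and 32.9 ± 15.1 CPM in WT-HFD eWAT, and the log2 fold change of -0.52 (SE 0.79, adjusted p 0.954) was within the spread. It was -0.11 (SE 0.63, adjusted p 0.930) with the library labelled RFP KO-HFD 1 left out and -1.72 (adjusted p 0.394) with RFP KO-HFD 2 left out. Mesothelial markers summed to 8.21, 88.8 and 9.69 CPM of the library total in RFP KO-HFD 1, 2 and 3 and 100.3, 608 and 157 CPM in WT-HFD 1, 2 and 3. Krt19 alone was 81.9 CPM of the sum in RFP KO-HFD 2 and 473 CPM in WT-HFD 2, and the other 7 markers summed to 1.23, 6.89 and 5.56 CPM in RFP KO-HFD libraries and to 71.4, 135 and 116 CPM in WT-HFD libraries. The part of these cells in the Igf1r levels was not tested.

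Irs1 (chromosome 1, 82210826 to 82269160) and Irs2 (chromosome 8, 11034681 to 11058929) encode insulin receptor substrates. Irs1 had 0 counts in the library labelled RFP KO-HFD 1, a level under 0.607 CPM by a floor of 3 counts, and 13.8 and 27.6 CPM in RFP KO-HFD 2 and 3, against 14.7, 11.2 and 15.9 CPM in WT-HFD libraries. RFP KO-HFD 2 was within the WT range and RFP KO-HFD 3 above it. The log2 fold change was -0.01 (SE 1.44, 95% interval -3.48 to 3.46, adjusted p 0.999), or, with the library labelled RFP KO-HFD 1 left out, 0.55 (SE 0.36, adjusted p 0.385).

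Irs2 was at 21.8, 49.8 and 101 CPM in RFP KO-HFD libraries and at 31.0, 53.3 and 37.1 CPM in WT-HFD libraries. The same RFP KO-HFD 3 library was highest and the same RFP KO-HFD 1 library lowest as for Irs1, with overlapping groups. The log2 fold change was 0.51 (SE 0.60, adjusted p 0.942) with all libraries and 0.89 (SE 0.37, adjusted p 0.214) without the library labelled RFP KO-HFD 1.

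Pik3r1 (chromosome 13, 101817269 to 101904725) encodes the p85-alpha regulatory subunit of PI3K, which holds and stabilises the catalytic subunit. Its level was 37.6, 70.7 and 108 CPM in RFP KO-HFD 1, 2 and 3, against 131, 113 and 123 CPM in WT-HFD 1, 2 and 3. All 3 RFP KO-HFD libraries were below all 3 WT-HFD libraries, though RFP KO-HFD 3 came close to WT-HFD 2. It was the one gene of the 10 to be lower in this way, where 16% of all genes were. The mean was 72.0 ± 35.1 CPM in RFP KO-HFD eWAT and 122 ± 9.20 CPM in WT-HFD eWAT (SD, n = 3 each), and the log2 fold change was -0.76 (SE 0.45, 95% interval -1.84 to 0.31, adjusted p 0.828). With the library labelled RFP KO-HFD 1 left out, RFP KO-HFD 2 and 3 were still below all WT libraries, with a log2 fold change of -0.47 (SE 0.24, adjusted p 0.282), an order seen in 24.7% of all genes. Scaled by library totals, Pik3r1 was at 38.2, 69.4 and 73.6 CPM in RFP KO-HFD libraries against 146, 130.1 and 137 CPM in WT-HFD libraries, a log2 fold change of -1.19 (SE 0.39, adjusted p 0.558), and under that scale 27.8% of all genes were lower in every RFP KO-HFD library.

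Catalytic subunits were read beside it. Pik3ca, a catalytic subunit, was at 27.5, 68.5 and 57.9 CPM in RFP KO-HFD libraries and 58.1, 71.4 and 54.7 CPM in WT-HFD libraries, with overlapping groups. Pik3cb, another catalytic subunit, was at 112, 17.2 and 12.2 CPM in RFP KO-HFD libraries against 41.1, 25.4 and 38.2 CPM in WT-HFD libraries, so that the library labelled RFP KO-HFD 1 was far above WT and the other RFP KO-HFD libraries below it. Pik3cd, also a catalytic subunit, was at 122.5, 28.2 and 26.9 CPM in RFP KO-HFD libraries. It was at 35.1, 22.8 and 34.1 CPM in WT-HFD libraries, and the groups overlapped. All 3 were chosen after their values were seen. With the library labelled RFP KO-HFD 1 left out, 24.7% of all genes were below WT, as Pik3cb was.

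Akt2 (chromosome 7, 27290977 to 27340251) encodes the Akt kinase that carries most of the insulin signal to glucose uptake. It was at 59.0, 347 and 652 CPM in RFP KO-HFD libraries, against 284, 246 and 328 CPM in WT-HFD libraries. RFP KO-HFD 2 and 3 were above all WT libraries, whereas the library labelled RFP KO-HFD 1 was far below them. The mean was 353 ± 297 CPM in RFP KO-HFD eWAT and 286 ± 41.1 CPM in WT-HFD eWAT, and the log2 fold change of 0.30 (SE 0.79, adjusted p 0.972) was smaller than its error. It was 0.79 (SE 0.32, adjusted p 0.200) without that library. With library totals in place of TMM factors RFP KO-HFD 2 was at 341 CPM, within the WT range of 284 to 365 CPM.

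Tbc1d4 (chromosome 14, 101679800 to 101846717) encodes AS160, the Rab GTPase-activating protein that holds GLUT4 vesicles inside the cell until Akt phosphorylates it. It was at 167, 21.1 and 33.8 CPM in RFP KO-HFD libraries and 29.4, 22.1 and 35.5 CPM in WT-HFD libraries. The library labelled RFP KO-HFD 1 alone was high, and the other 5 libraries overlapped. The log2 fold change was 1.35 (SE 0.81, adjusted p 0.834) with it and -0.09 (SE 0.31, adjusted p 0.872) without it.

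Slc2a4 (chromosome 11, 69833112 to 69839040) encodes GLUT4, the insulin-responsive glucose transporter of fat and muscle. It was at 1.21, 106 and 188 CPM in RFP KO-HFD libraries, against 62.4, 121 and 82.0 CPM in WT-HFD libraries. The library labelled RFP KO-HFD 1 held 6 counts (exact Poisson 95% interval 0.445 to 2.64 CPM, counting error only), and it was this same library that had no count for Adipoq or Plin1. RFP KO-HFD 2 was within the WT range and RFP KO-HFD 3 above it. The log2 fold change was 0.15 (SE 1.28, 95% interval -2.93 to 3.23, adjusted p 0.996) with all libraries and 0.72 (SE 0.37, adjusted p 0.280) without the library labelled RFP KO-HFD 1. With library totals in place of TMM factors RFP KO-HFD 3 was at 128 CPM of Slc2a4, within the WT range of 69.7 to 139.5 CPM. Skeletal muscle, which also makes GLUT4, gave summed marker levels of 10.5, 90.8 and 84.3 CPM of the library total in RFP KO-HFD libraries and 40.2, 708 and 71.8 CPM in WT-HFD libraries. In WT-HFD 2 that sum was mostly Acta1 (494 CPM) and Ckm (210 CPM), whereas Myh1 had no count and Myh4 and Mylpf were at 0.131 and 0.263 CPM.

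The closest genes to Slc2a4 over the 6 libraries were Snx17 (Pearson r 0.9998), Tcf25 (0.9997) and Kars (0.9996), out of the same 9020 candidates. Snx17, which encodes a sorting nexin of endosomes, was at 5.66, 127 and 181 CPM in RFP KO-HFD libraries and at 89.6, 139 and 107 CPM in WT-HFD libraries. The low value in the library labelled RFP KO-HFD 1 was the lowest of the 6 for Slc2a4 and for all 3 of these genes. This 1 low point weighs heavily in a correlation of log2 levels, and, as for Igf1, the correlations are a description only.

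Foxo1 (chromosome 3, 52175758 to 52257530) encodes the forkhead transcription factor that Akt holds out of the nucleus. Its level was 54.0, 335 and 228 CPM in RFP KO-HFD 1, 2 and 3, against 110.1, 95.8 and 129.6 CPM in WT-HFD 1, 2 and 3. RFP KO-HFD 2 and 3 were above every WT library, and the library labelled RFP KO-HFD 1 was below every one. The mean was 205 ± 142 CPM in RFP KO-HFD eWAT and 112 ± 16.9 CPM in WT-HFD eWAT (SD, n = 3 each), and the log2 fold change was 0.88 (SE 0.65, 95% interval -0.68 to 2.44, adjusted p 0.887). Without the library labelled RFP KO-HFD 1 it was 1.32 (SE 0.25, 95% interval 0.70 to 1.93, adjusted p 0.0859), the lowest adjusted p of the 10 in that fit. Under library totals RFP KO-HFD 2 and 3 stayed above WT, at 328 and 156 CPM, against at most 144 CPM in WT-HFD libraries. In limma-voom, with libraries weighted by their quality, the log2 fold change was 1.13 (adjusted p 0.0401), in a fit where 7.07% of all genes passed.

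**Figure D3:**
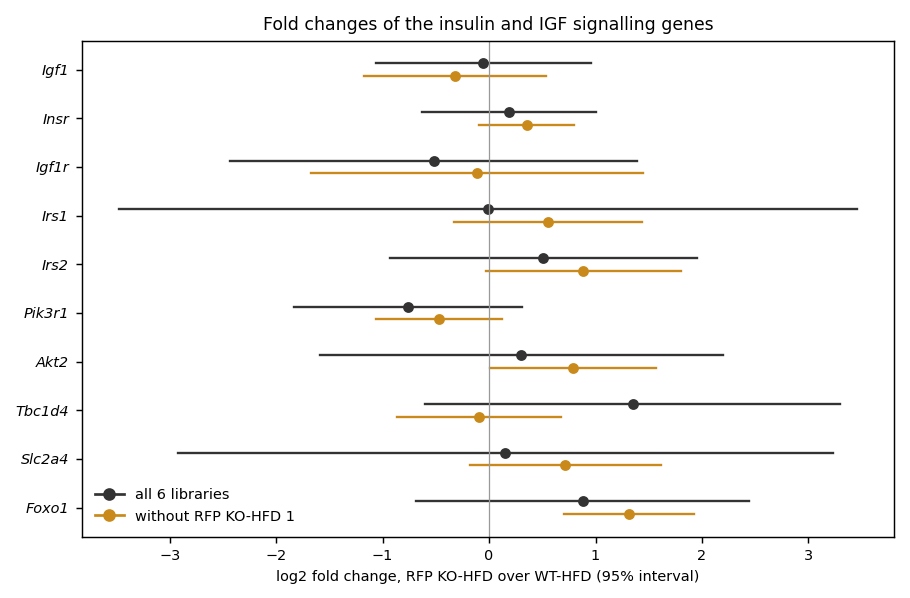
Log2 fold change of RFP KO-HFD over WT-HFD with its 95% interval for each of the 10 genes, with all 6 libraries in black and in orange with the library labelled RFP KO-HFD 1 left out. All black intervals cover 0, and the orange interval of Foxo1 (0.70 to 1.93) lies farthest from it.

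In RFP KO-HFD 2 and 3, Pik3r1 was below and Foxo1 above every WT library. The ratio of Pik3r1 to Foxo1 counts, which does not depend on the scaling between libraries, was 0.697, 0.211 and 0.473 in RFP KO-HFD 1, 2 and 3, against 1.19, 1.18 and 0.948 in WT-HFD 1, 2 and 3. The groups did not overlap, with means of 0.460 ± 0.243 in RFP KO-HFD and 1.10 ± 0.136 in WT-HFD libraries (SD, n = 3 each), and the library labelled RFP KO-HFD 1 was on the side of the other RFP KO-HFD libraries. This ratio was chosen after its values were seen and has no test. With Pik3r1 below and Foxo1 above WT in RFP KO-HFD 2 and 3, the order of these 2 libraries was fixed by the choice. How many other pairs of genes would separate the groups was not counted.

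Ratios of related genes within a library were compared next, as log2 of 2 counts with 0.5 added to each. They ask whether one gene of a pair changed against the other, and with 3 libraries against 3 the smallest p an exact permutation test can give is 0.1. The Insr to Igf1r ratio was 2.59, 0.37 and 2.60 in RFP KO-HFD libraries and 1.16, -0.01 and 1.22 in WT-HFD libraries, a difference of 1.07 (two-sided exact permutation p 0.3) that was 0.70 with the library labelled RFP KO-HFD 1 left out and 1.81 with RFP KO-HFD 2 left out. In both groups the replicate numbered 2 was the low one, and Igf1r was high there. Irs1 to Irs2 was -7.76, -1.85 and -1.87 in RFP KO-HFD libraries against -1.07, -2.25 and -1.22 in WT-HFD libraries, a difference of -2.31 (exact permutation p 0.3) that was -0.35 without the library labelled RFP KO-HFD 1, where Irs1 had no count.

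Akt2 to Akt1, the kinase of broader growth signalling, was -0.05, 1.66 and 2.32 in RFP KO-HFD libraries and 1.61, 1.35 and 1.77 in WT-HFD libraries, a difference of -0.27 (exact permutation p 0.9). Slc2a4 to Slc2a1, the widely expressed transporter GLUT1, was -3.07, 2.10 and 3.51 in RFP KO-HFD libraries against 1.70, 2.65 and 2.08 in WT-HFD libraries, a difference of -1.30 (exact permutation p 0.9). Both differences turned once the library labelled RFP KO-HFD 1 was left out, to 0.41 and 0.66. The p-values were computed for 4 pairs, and none could pass a threshold of 0.05.

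**Figure D4:**
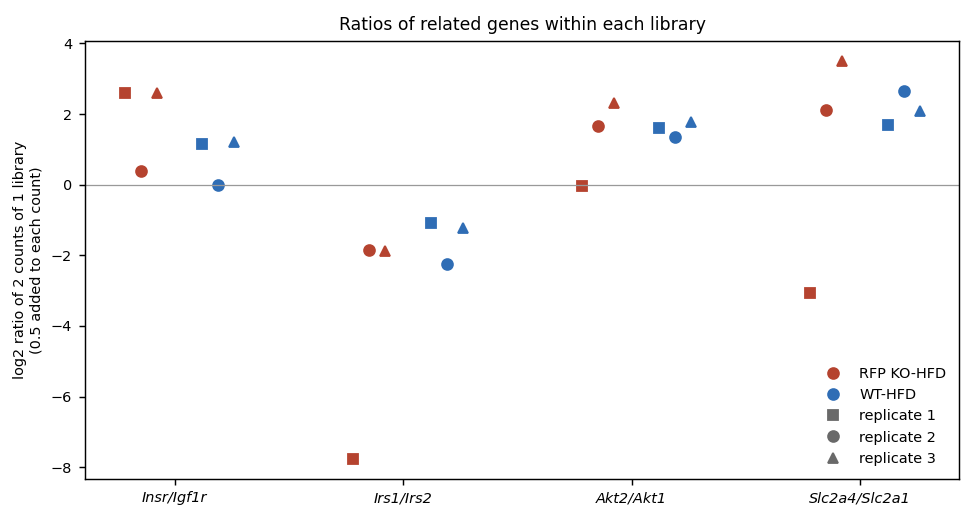
Log2 ratio of the counts of 2 genes in each library (0.5 added to each count) for 4 pairs, RFP KO-HFD in red left of WT-HFD in blue with a symbol for each replicate number. The library labelled RFP KO-HFD 1 is far below the rest for Irs1 to Irs2 (-7.76) and Slc2a4 to Slc2a1 (-3.07), and the groups overlap in all 4.

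Levels were compared between genes per kilobase of exon, with the exons of all annotated transcripts of a gene merged. The transcripts present in these libraries may be shorter, so the order of genes at close levels can depend on this length. In WT-HFD eWAT Akt2 was highest, at 40.1 ± 5.76 CPM per kb, followed by Slc2a4 at 25.4 ± 8.55, whose ranges over the 3 libraries overlapped. Foxo1 (12.9 ± 1.96), Igf1 (12.7 ± 4.35) and Pik3r1 (12.1 ± 0.913) came next and overlapped each other, at levels below all values of Slc2a4. Irs2 (6.40 ± 1.82) was below Foxo1 and Pik3r1 but overlapped Igf1, and it was above Insr (3.89 ± 0.261) and Tbc1d4 (3.77 ± 0.872), which overlapped each other. Igf1r (1.96 ± 0.897), which overlapped Tbc1d4, and Irs1 (1.52 ± 0.271), which overlapped Igf1r, were lowest. In RFP KO-HFD eWAT the means in CPM per kb were 49.5 ± 41.6 for Akt2, 28.2 ± 26.9 for Slc2a4, 23.7 ± 16.3 for Foxo1, 12.2 ± 3.48 for Igf1, 9.64 ± 10.5 for Tbc1d4, 9.11 ± 6.37 for Irs2, 7.15 ± 3.49 for Pik3r1, 4.42 ± 1.11 for Insr, 1.51 ± 1.51 for Irs1 and 1.36 ± 1.36 for Igf1r (SD, n = 3). These means pool unlike libraries. In the library labelled RFP KO-HFD 1, Tbc1d4 (21.8) and Igf1 (16.1) were above Akt2 (8.28 CPM per kb).

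Of 66 other genes of the pathway in 6 lists, 62 were tested, and 23 were higher and 39 lower in RFP KO-HFD eWAT, with a median log2 fold change of -0.25 beside -0.13 over all genes. None passed edgeR's adjusted test. At an unadjusted p under 0.05, 3 were lower, beside 2.7% of all genes, and none higher, beside 4.05%. All 3 RFP KO-HFD libraries were above WT in 3 of the 62 and below it in 13, beside 7.28% and 16% of all genes. Under library totals these counts were 0 above and 21 below, beside 3.53% and 27.8% of all genes. Of the same lists 64 genes were tested when the library labelled RFP KO-HFD 1 was left out, of which 30 were higher and 34 lower with a median of -0.08 beside -0.07 over all genes. Of these, 10 were higher and 11 lower at an unadjusted p under 0.05, beside 12.1% and 12.6% of all genes.

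Of ligands, receptors and IGF binding proteins, 3 of 9 were higher and 6 lower, with a median of -0.71 that was -0.20 without the library labelled RFP KO-HFD 1. Igf2r, the receptor that clears IGF2, was at 66.5, 36.0 and 34.6 CPM in RFP KO-HFD libraries against 136, 79.5 and 115 CPM in WT-HFD libraries, without overlap (log2 fold change -1.27, SE 0.42, adjusted p 0.636, or -1.66 with adjusted p 0.0776 without the library labelled RFP KO-HFD 1). Igfals, which encodes the acid-labile subunit that carries IGF complexes in blood, was at 32.3, 39.9 and 18.5 CPM in RFP KO-HFD libraries against 61.1, 50.3 and 63.9 CPM in WT-HFD libraries (log2 fold change -0.95, adjusted p 0.749, or -1.01 with adjusted p 0.167 without that library).

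Some genes outside the naming rule were picked after their values were seen, because RFP KO-HFD 2 and 3 stood on one side of WT. Such an order was common, as these 2 libraries were above all of WT in 20.6% of all genes and below it in 24.7%. Igf2, the other IGF ligand, was at 0, 29.5 and 26.5 CPM in RFP KO-HFD libraries against 6.95, 7.29 and 6.47 CPM in WT-HFD libraries. Igfbp5, an IGF binding protein, was at 0, 88.4 and 95 CPM in RFP KO-HFD libraries against 285, 244 and 258 CPM in WT-HFD libraries, and Igfbp6 at 1.82, 88.3 and 71.1 CPM in RFP KO-HFD libraries against 133, 176 and 195 CPM in WT-HFD libraries. Igfbp4 ran the other way in RFP KO-HFD 2 and 3, at 238, 961 and 2053 CPM in RFP KO-HFD libraries against 555, 561 and 716 CPM in WT-HFD libraries. In the library labelled RFP KO-HFD 1, Igf2 and Igfbp5 had no count. For the other IGF binding proteins of the list, Igfbp2, Igfbp3 and Igfbp7, the groups overlapped both with and without that library.

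Among adaptors and scaffolds, 3 of 10 were higher and 7 lower (median -0.47, or -0.25 with the library labelled RFP KO-HFD 1 left out). Grb14, which binds and inhibits the insulin receptor, was at 12.1, 8.70 and 6.17 CPM in RFP KO-HFD libraries against 32.6, 10.4 and 26.1 CPM in WT-HFD libraries (log2 fold change -1.36, adjusted p 0.770, or -1.65 with adjusted p 0.149 when that library was left out). Sh2b1, an adaptor of the receptor, was at 46.5, 30.2 and 29.8 CPM in RFP KO-HFD libraries against 20.5, 24.9 and 20.1 CPM in WT-HFD libraries, above WT in all libraries (log2 fold change 0.70, adjusted p 0.815, or 0.45 with adjusted p 0.226 when it was left out), an order that was lost under library totals. Sh2b2, named after its values were seen, was at 0, 77.8 and 180.3 CPM in RFP KO-HFD libraries against 27.0, 14.3 and 24.1 CPM in WT-HFD libraries. With the library labelled RFP KO-HFD 1 left out it was above WT, as in 20.6% of all genes.

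Of the list from PI3K to mTOR, 7 of 17 genes were higher and 10 lower (median -0.04, or -0.16 with the library labelled RFP KO-HFD 1 left out). This list holds kinases together with subunits and regulators that are not kinases, some of them inhibitors. Gsk3b, the glycogen synthase kinase that Akt inhibits, was at 25.3, 39.9 and 44.8 CPM in RFP KO-HFD libraries against 79.2, 68.0 and 74.3 CPM in WT-HFD libraries, well apart (log2 fold change -1.01, SE 0.36, adjusted p 0.670). It was -0.82 (adjusted p 0.0982) without the library labelled RFP KO-HFD 1. Rictor, a subunit of the mTOR complex that phosphorylates Akt, was at 54.4, 5.63 and 7.38 CPM in RFP KO-HFD libraries against 6.84, 6.32 and 6.32 CPM in WT-HFD libraries, high in the library labelled RFP KO-HFD 1 alone (log2 fold change 1.78, adjusted p 0.815, or -0.01 with adjusted p 0.983 when it was left out).

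The list called inhibitors of the pathway was split, with 4 of 12 higher and 8 lower (median -0.37, or -0.22 with the library labelled RFP KO-HFD 1 left out). Not every gene in it is an inhibitor, and some inhibitors, such as Grb14, were counted in other lists. Ppp2ca, the catalytic subunit of protein phosphatase 2A, was at 86.5, 139 and 134 CPM in RFP KO-HFD libraries against 225, 197 and 227 CPM in WT-HFD libraries, without overlap (log2 fold change -0.85, SE 0.35, adjusted p 0.721, or -0.68 with adjusted p 0.121 when it was left out). Ptprf, a receptor-type phosphatase, was at 12.7, 48.8 and 9.47 CPM in RFP KO-HFD libraries against 42.0, 95.8 and 40.9 CPM in WT-HFD libraries (log2 fold change -1.33, adjusted p 0.818, or -1.04 with adjusted p 0.438 when it was left out). Socs3, an inhibitor of insulin receptor signalling, was at 0, 17.3 and 109 CPM in RFP KO-HFD libraries against 5.58, 4.27 and 5.69 CPM in WT-HFD libraries. Ptpn1, a phosphatase of the insulin receptor, was at 21.6, 106 and 136 CPM in RFP KO-HFD libraries against 66.5, 66.5 and 62.6 CPM in WT-HFD libraries. Both were named after their values were seen, and in both RFP KO-HFD 2 and 3 were above WT and the library labelled RFP KO-HFD 1 below it. Without that library 20.6% of all genes were above WT.

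Glucose transporter traffic gave 5 of 12 higher and 7 lower (median -0.11), and no gene of it separated the groups on the TMM scale. With the library labelled RFP KO-HFD 1 left out the direction turned, to 8 higher and 4 lower (median 0.11), and 3 genes were above WT, as in 20.6% of all genes. Tbc1d1, a relative of Tbc1d4, was at 3.03, 22.2 and 11.6 CPM in RFP KO-HFD libraries against 23.7, 47.9 and 19.5 CPM in WT-HFD libraries (log2 fold change -1.30, adjusted p 0.840, or -0.85 with adjusted p 0.330 in that second fit). Lnpep, the aminopeptidase that travels with GLUT4 vesicles, was at 26.7, 10.5 and 21.6 CPM in RFP KO-HFD libraries against 12.1, 5.01 and 16 CPM in WT-HFD libraries (log2 fold change 0.83, adjusted p 0.904, or 0.52 with adjusted p 0.593 in that second fit).

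Of the other forkhead factors, Foxo3 was at 42.9, 75.7 and 49.6 CPM in RFP KO-HFD libraries against 40.8, 36.2 and 42.5 CPM in WT-HFD libraries, just above WT in every library (log2 fold change 0.49, adjusted p 0.887, or 0.64 with adjusted p 0.178 when the library labelled RFP KO-HFD 1 was left out), and under library totals the groups overlapped. Foxo4 was at 0, 36.5 and 40.6 CPM in RFP KO-HFD libraries against 33.3, 40.0 and 36.3 CPM in WT-HFD libraries (log2 fold change -0.50, adjusted p 0.975, or 0.06 with adjusted p 0.854 when it was left out). Foxo6 was tested only in the fit without that library. The median of the list was -0.00499 over 2 genes with all libraries and 0.58 over 3 genes in that fit.

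**Figure D5:**
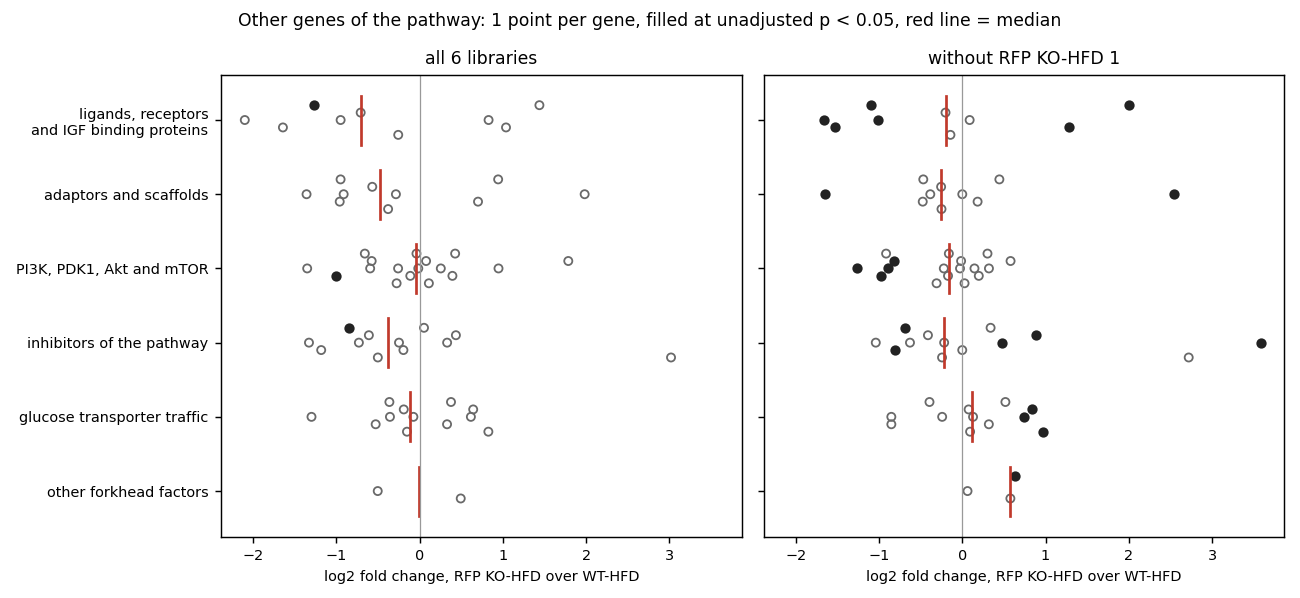
Log2 fold change of RFP KO-HFD over WT-HFD for each other gene of the pathway, by list, with all 6 libraries on the left and the library labelled RFP KO-HFD 1 left out on the right, filled points at an unadjusted p under 0.05 and a red line at each list's median. With all 6 libraries the 3 filled points, Igf2r, Gsk3b and Ppp2ca, are below 0, and without that library 10 of the filled points are above 0 and 11 below it.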

How the data were processed

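The 6 libraries were of eWAT from 3 RFP KO-HFD and 3 WT-HFD mice, grouped by their titles. Per the labels and the study's methods, total RNA was taken with Trizol, mRNA was selected by poly(A) and libraries were made with the CORALL kit. The labels also name removal of ribosomal RNA. Trimmed reads were mapped by STAR, and Salmon gave the quantities. The methods name Fastp as the trimmer and the submitters' processing notes Trimmomatic and mm10, whereas the deposited table names GRCm39 and its accessions are of that build. Coordinates of genes are those of the table.

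The authors deposited a raw count per gene and library as whole numbers, which were tested as they stand. The authors also deposited log2 values of TMM-normalized CPM plus 1, which served for 1 alternative chosen after seeing the data. Their fold changes and p-values were not used. Library totals ran from 4870239 to 17215047 counts, and lower totals give less precise values. Nothing in the sources says more of the replicates than that each is a mouse of its group.

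Genes were kept by filterByExpr (min.count 10, min.total.count 15) and fitted with edgeR 4.0.16 (TMM, glmQLFit robust, glmQLFTest) in R 4.3.3. Genotype was the single term, and p-values were adjusted by Benjamini-Hochberg over all genes tested, at a threshold of 0.05. Values per library are TMM-normalized CPM unless called CPM of the library total. As alternatives, scaling was by RLE factors, upper quartiles or library totals, the tool was DESeq2 1.42.0, voom of limma 3.58.1 or voom weighted by library quality, and others were no filter, at least 10 counts in every library, the replicate number as a block, each library left out, and the library labelled RFP KO-HFD 1 left out with WT-HFD 2. Exon lengths were from GENCODE M21 and promoters from RefSeq. The rule for named genes took all 10 members, the 2 of smallest p of each of the 6 pathway lists, the 3 genes most like Slc2a4 and Igf1, and Trim27. Pik3ca, Pik3cb, Pik3cd, Igf2, Igfbp2, Igfbp3, Igfbp4, Igfbp5, Igfbp6, Igfbp7, Sh2b2, Socs3 and Ptpn1 were outside that rule and were named after their values were seen. The members and lists were chosen with earlier results of these data known.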

Additional observations from a re-analysis of the deposited data

How the results depend on the processing

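With all 6 libraries no gene passed edgeR's adjusted test (992 of 14706 had an unadjusted p under 0.05), against 488 genes in DESeq2, 1039 in limma-voom with quality weights, 507 with both WT-HFD 2 and RFP KO-HFD 1 left out, and 0 to 2 with each library left out. Of the 10 genes, 1 (Foxo1) passed the adjusted test with quality weights, where 7.07% of all genes did. At an unadjusted p under 0.05 there were 1 with library totals, 3 with quality weights and 4 without these 2 libraries. Beside these stood 8.01%, 28% and 31.7% of all genes. With each library left out there were 0 to 2, beside 2.93% to 24.7% of all genes. The fit with 2 was that without RFP KO-HFD 1, where the share was 24.7%.

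Pik3r1 (-1.20 to -0.47) and Foxo1 (0.38 to 1.32) kept their sign in 17 of 17 alternatives, which reuse the same libraries. The log2 fold change turned with library totals for Akt2 (-0.19), Insr (-0.19) and Slc2a4 (-0.37), with limma-voom for Akt2 (-0.29) and Slc2a4 (-0.40), and with the authors' normalized values for Akt2 (-0.33) and Slc2a4 (-1.34). It turned with upper-quartile factors for Igf1 (0.0442) and Irs1 (0.0386), with RLE factors and DESeq2 for Irs1 (0.0192 and 0.0169), with quality weights for Igf1r (0.0745), Irs1 (0.21) and Tbc1d4 (-0.28), and without the 2 libraries for Igf1r (0.34), Irs1 (0.42) and Tbc1d4 (-0.25). With each library left out the ranges that crossed 0 were -0.52 to 0.79 for Akt2, -0.34 to 0.13 for Igf1, -0.0171 to 0.35 for Insr, -1.03 to 0.55 for Irs1, -0.21 to 0.89 for Irs2, -0.76 to 0.72 for Slc2a4 and -0.0948 to 1.80 for Tbc1d4, and for the ratios -0.77 to 0.41 for Akt2 to Akt1 and -2.63 to 0.66 for Slc2a4 to Slc2a1. The cause was not tested.

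The median of the 10 genes was 0.17, and with limma-voom -0.16, library totals -0.28, the authors' values -0.21 and RFP KO-HFD 3 left out -0.24. These shifts were within 0.78, the SD of the members' median between libraries of a group. That SD was wide through RFP KO-HFD 1, whose median deviation from the WT mean was -1.36, against -0.16 to 0.73 in the others. The median over all genes moved too, from -0.13 to -0.51 with limma-voom, -0.50 with library totals and -0.32 with RFP KO-HFD 3 left out. Same-numbered libraries deviated from their group means together with r of 0.03, 0.02 and 0.05, each the highest for its number. With 3 libraries in a group this check cannot decide whether the numbers pair the samples. With the number as a block 0 genes passed, 393 had an unadjusted p under 0.05, and Akt2 (-0.18) and Slc2a4 (-0.98) turned. Irs1 and Slc2a4 gave no value with at least 10 counts in every library. Counts limit the low values of the library labelled RFP KO-HFD 1, where 3 counts are 0.607 CPM.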
